A study of Rattus norvegicus with 5 samples.

Results

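The genes of MHC class II antigen presentation were followed in the lumbar dorsal horn of rats after nerve injury. The set holds 10 genes, Cd74, Ciita, RT1-Da, RT1-Db1, RT1-Ba, RT1-Bb, RT1-DMa, RT1-DMb, RT1-DOa and RT1-DOb, taken by name from the 17321 gene rows of the deposited count table, and all 10 were found. They were chosen for their function and not for their values. Of the 10, 8 had enough counts to be tested among 13478 tested genes, and RT1-Bb and RT1-DOa did not.

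RNA came from the dorsal horn of spinal segments L4-L6 of Sprague Dawley rats on day 9 after surgery, with 3 CCI libraries and 2 SHAM libraries. CCI commonly stands for chronic constriction injury, a rodent model of neuropathic pain in which loose ligatures are tied around a nerve, and SHAM for surgery that spares the nerve. The study concerns the orphan receptor GPR160 in neuropathic pain, and the comparison asks which transcripts differ in the cord after the injury. No transgene or drug is named, and no age or sex is given in the labels used here. Whether the 5 libraries come from 5 animals is not stated, so every p-value reflects only how these libraries scatter, which may be technical.

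MHC class II molecules are dimers of an alpha and a beta chain that carry peptides from endosomes to the cell surface and show them to CD4+ T cells. Newly made dimers are held by the invariant chain, the product of Cd74, which is cut away by endosomal proteases until the exchange factor DM swaps its last fragment for a peptide; DO is an inhibitor of DM. Transcription of these genes depends on the coactivator CIITA, which binds no DNA itself and is recruited by the factors RFX, NF-Y and CREB bound to the promoters. In the rat, RT1-D and RT1-B are the counterparts of human HLA-DR and HLA-DQ. In the healthy spinal cord few cells carry class II, mainly macrophages of the borders and vessels, while microglia, the resident macrophages of the tissue, can switch it on when activated.

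Promoters are shown first because these genes share an arrangement of short sequences to which their common regulators are known to bind. RefSeq promoter windows on the build GRCr8, from 250 bases before to 50 bases after each start, were at hand for 8 of the 10 genes, namely all but Ciita and RT1-DMb. In 7 of these 8 windows the letters GNNAC stood 24 to 27 bases ahead of GATTGG, the core of the Y box read by NF-Y; the first motif lies where the X box read by RFX begins. Both strands were searched, the motifs do not overlap, and the spacing was set after reading these promoters. The same arrangement was present in 0.834% of 33469 promoter windows, GATTGG alone in 14.8% and GNNAC alone in 99.8%, so the first motif by itself distinguishes almost no window. The spaced arrangement was absent from the Cd74 window, which held GNNAC but no GATTGG on either strand. The stretches are read in the direction of transcription, with both motifs in capitals, and come from chr20:4515325-4515378 (plus strand) for RT1-Da, chr20:4560230-4560282 (minus) for RT1-Db1, chr20:4576973-4577026 (plus) for RT1-Ba, chr20:4604167-4604219 (minus) for RT1-Bb, chr20:4712387-4712440 (minus) for RT1-DMa, chr20:4758518-4758571 (minus) for RT1-DOa and chr20:4627594-4627644 (minus) for RT1-DOb.
RT1-Da: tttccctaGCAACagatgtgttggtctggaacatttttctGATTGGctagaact
RT1-Db1: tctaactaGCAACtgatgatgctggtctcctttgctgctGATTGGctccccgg
RT1-Ba: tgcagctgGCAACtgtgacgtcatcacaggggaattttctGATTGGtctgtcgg
RT1-Bb: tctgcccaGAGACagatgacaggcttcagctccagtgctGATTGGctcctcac
RT1-DMa: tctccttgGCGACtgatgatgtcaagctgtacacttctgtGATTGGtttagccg
RT1-DOa: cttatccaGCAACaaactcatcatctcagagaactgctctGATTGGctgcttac
RT1-DOb: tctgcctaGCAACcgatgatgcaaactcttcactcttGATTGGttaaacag
The motif nearer the start lay 44 bases before the start of RT1-Ba, the closest of the 7, and 108 bases before that of RT1-DOa, the farthest. RT1-Bb and RT1-DMa departed from the GCAAC of the other 5, with GAGAC and GCGAC. A match of letters is a description and does not show that a factor was bound.

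The libraries held 20053353 to 23673198 estimated counts each. Transcripts of neurons were present in all 5, with Slc17a6, the vesicular glutamate transporter of excitatory neurons, at 291 to 342 CPM (counts relative to library size, scaled by trimmed mean of M-values) and Slc32a1, the vesicular transporter of inhibitory neurons, at 106 to 135 CPM. Other neuronal genes were less even. Lmx1b was at 5.4, 9.9 and 10.7 CPM in CCI 1 to CCI 3, against 4.7 and 8.3 CPM in SHAM 1 and SHAM 2. Chat, a gene of cholinergic neurons, was lower in CCI (log2 fold change -1.02, SE 0.19, edgeR adjusted p = 0.0348). How alike the tissue taken was between libraries was not tested. Ribosomal RNA took 16% of the counts in CCI 3, against 2.18% to 2.71% elsewhere. The summed Schwann cell and fibroblast markers stood higher in CCI 2 and CCI 3 than in CCI 1 and both SHAM libraries, and their values are given below.

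The class II genes were higher in the CCI libraries, but in a pattern with 2 tiers. The subunits of the exchange factor DM rose, with all 3 CCI libraries above both SHAM libraries and less than 2 times apart, CCI 2 being the highest here too. The antigen-presenting chains, the invariant chain and the coactivator had much larger fold changes, yet did not pass the test, and in each of them CCI 2 stood far above CCI 1 and CCI 3. A gene was called when edgeR's quasi-likelihood test gave an adjusted p of at most 0.05 with a fold of at least 1.5. Of the 8 genes tested, 2 were called higher and none lower, where 2.59% of all tested genes were called higher and 0.260% lower. An unadjusted p under 0.05 (edgeR) was reached by 6 of the 8, against 2153 of all 13478 tested genes. The median log2 fold change of the 8 was 3.75, beside 0.01 over all tested genes. In bulk tissue, more cells of a type and more RNA per cell cannot be told apart.

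RT1-DMa encodes the alpha chain of DM. Its level was 30.0, 44.7 and 26.4 CPM in CCI 1, CCI 2 and CCI 3, against 14.2 and 14.1 CPM in SHAM 1 and SHAM 2. The lowest CCI library was 1.86 times the highest SHAM library, and the SHAM libraries were nearly equal. The mean was 33.7 ± 9.69 CPM in CCI (SD, n = 3) and 14.2 ± 0.0299 CPM in SHAM (SD, n = 2), and the log2 fold change was 1.25 with an SE of 0.23 (edgeR adjusted p = 0.0335). RT1-DMb, the beta chain, was at 24.8, 39.9 and 21.6 CPM in CCI 1, CCI 2 and CCI 3, against 6.55 and 7.84 CPM in SHAM 1 and SHAM 2. Its groups were separated more widely, with the lowest CCI library at 2.75 times the highest SHAM library. The log2 fold change of RT1-DMb was 2.0 (SE 0.29, adjusted p = 0.0153 by edgeR, 4.01-fold). Neither call held without SHAM 1 or without SHAM 2, with edgeR adjusted p of 0.36 for RT1-DMa and 0.277 for RT1-DMb without SHAM 1, and 0.291 for RT1-DMa and 0.181 for RT1-DMb without SHAM 2. Calls fell over the whole table in these fits, to 61 genes higher (0.445%) without SHAM 1 and 73 (0.532%) without SHAM 2, against 349 with all 5 libraries. Both held without any single CCI library. RT1-DMa was also not called by limma-voom (adjusted p = 0.0557) or on the deposited TPM table (adjusted p = 0.0649 and 0.0558 at the larger and smaller pseudocount), where RT1-DMb was.

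**Figure D1:**
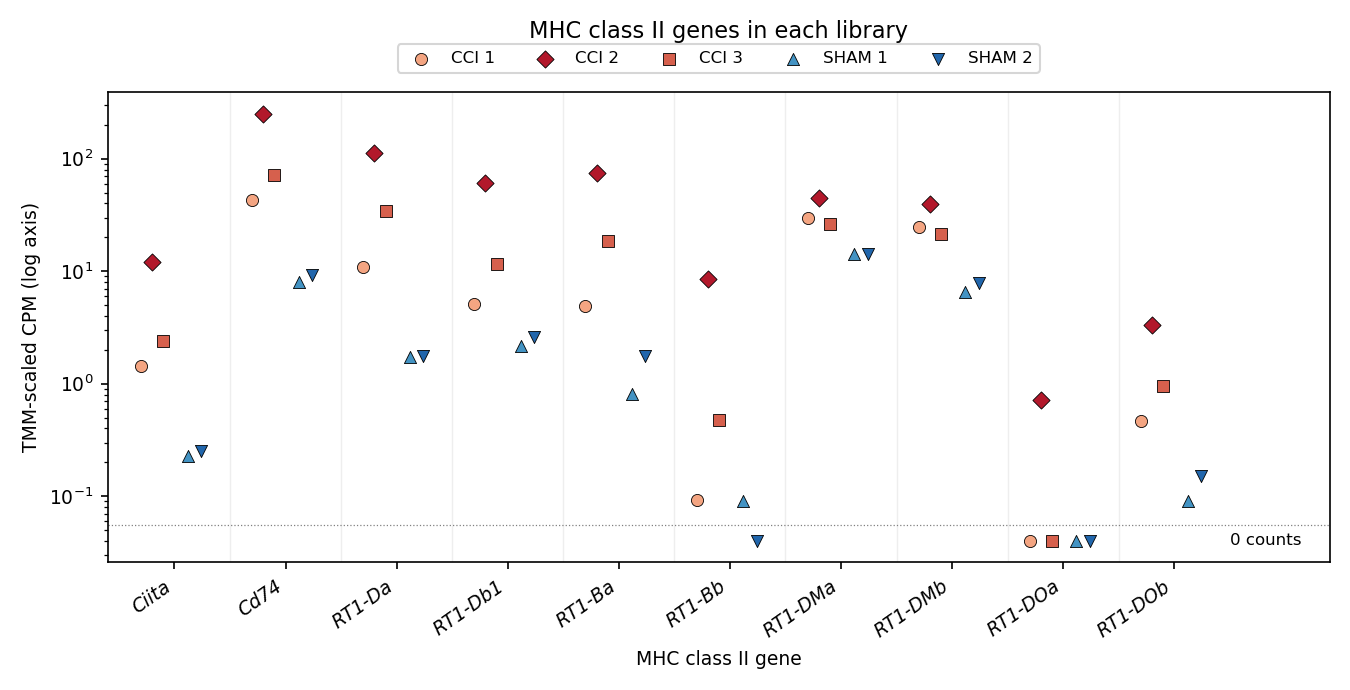
TMM-scaled CPM of the 10 MHC class II genes on a log axis, with 1 point per library, the 3 CCI libraries in red to the left of the 2 SHAM libraries in blue, and libraries without a count drawn below the dotted line. CCI 2 is the highest library for every gene, and the distance between CCI 2 and the other CCI libraries is small for RT1-DMa and RT1-DMb and large for the rest.

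Ciita encodes the coactivator on which class II transcription depends. It was at 1.44, 12.2 and 2.39 CPM in CCI 1, CCI 2 and CCI 3, against 0.227 and 0.250 CPM in SHAM 1 and SHAM 2, which rests on 31, 306 and 45 counts in CCI and on 5 and 5 counts in SHAM. All 3 CCI libraries lay above both SHAM libraries, the lowest by 5.74 times, and CCI 2 stood at 6.36 times the mean of the other CCI libraries. The log2 fold change was 4.46 (SE 1.41), and the adjusted p of 0.231 (edgeR) did not pass.

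Cd74, the invariant chain gene, had the highest CPM of the set in every CCI library. It was at 43.4, 251 and 71.6 CPM in CCI 1, CCI 2 and CCI 3, against 8.09 and 9.29 CPM in SHAM 1 and SHAM 2. The lowest CCI library was 4.67 times the highest SHAM library. The log2 fold change was 3.81 (SE 1.15, edgeR adjusted p = 0.273). Cd74 had fractional estimated counts in all 5 libraries, so some of its reads also fit other rows.

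RT1-Da and RT1-Ba, the alpha chains of the molecules that hold the peptide, had the 2 largest fold changes of the 8 tested genes. RT1-Da, the alpha chain of the DR counterpart, was at 10.9, 112 and 34.3 CPM in CCI 1, CCI 2 and CCI 3, against 1.73 and 1.75 CPM in SHAM 1 and SHAM 2. The SHAM libraries agreed closely while the CCI libraries spread over 10.3 times. The fold change of RT1-Da ranked 24 of 13478 tested genes (log2 4.92, SE 1.56), and its rank by p was 1944 (edgeR adjusted p = 0.295). RT1-Db1, the beta chain of the same molecule, was at 5.09, 61.1 and 11.7 CPM in CCI 1, CCI 2 and CCI 3, against 2.18 and 2.60 CPM in SHAM 1 and SHAM 2. Here CCI 1 was only 1.96 times the higher SHAM library, and the log2 fold change was 3.45 (SE 1.56, edgeR adjusted p = 0.414).

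RT1-Ba, the alpha chain of the DQ counterpart, was at 4.95, 75.2 and 18.7 CPM in CCI 1, CCI 2 and CCI 3, against 0.818 and 1.75 CPM in SHAM 1 and SHAM 2. Its CCI libraries spread over 15.2 times, the widest of the 8 tested genes, and its log2 fold change was 4.70 with an SE of 1.80 (edgeR adjusted p = 0.359). RT1-Bb, the beta chain of that molecule, had 2, 217 and 9 counts in CCI 1, CCI 2 and CCI 3 and 2 and 0 counts in SHAM 1 and SHAM 2, and was not tested. CCI 1 and SHAM 1 had the same count in this row. The row shares reads with the row LOC688090: the estimated counts of both are fractional in CCI 2 and CCI 3, and in both libraries their sum is whole within 0.001, which held for no other row. Summed, a step chosen after the data were seen, they had 43, 698 and 186 counts in CCI 1, CCI 2 and CCI 3 and 9 and 10 counts in SHAM 1 and SHAM 2. In that form the log2 fold change was 4.86 (SE 1.64, edgeR adjusted p = 0.299), and every CCI library lay above both SHAM libraries. RT1-Bb on its own is therefore uncertain.

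DO, the inhibitor of DM, was low throughout. RT1-DOb, its beta chain, was at 0.463, 3.33 and 0.954 CPM in CCI 1, CCI 2 and CCI 3, from 10, 84 and 18 counts, against 0.0909 and 0.150 CPM in SHAM 1 and SHAM 2, from 2 and 3 counts. The groups did not overlap, and the log2 fold change of 3.69 (SE 1.10, edgeR adjusted p = 0.169) rests on these few SHAM counts. RT1-DOb was called without CCI 1 (4.14, adjusted p = 0.0265). RT1-DOa, the alpha chain, had 18 counts in CCI 2 and 0 in the other 4 libraries. A count of 0 allows up to 3 counts, 0.139 CPM in CCI 1, 0.159 CPM in CCI 3, 0.136 CPM in SHAM 1 and 0.150 CPM in SHAM 2 for counting error alone, so its presence there was not detectable at this depth.

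The CCI libraries differed widely among themselves in most of these genes. CCI 2 was the highest of the 5 libraries for all 8 tested genes, against 23.0% of all tested genes, and also for RT1-Bb and RT1-DOa. The ratio of the highest to the lowest CCI library had a median of 7.84 over the 8 genes, from 1.69 in RT1-DMa to 15.2 in RT1-Ba, and a median of 1.22 over all tested genes. It was at least 4 in 6 of the 8, against 1.84% of tested genes. All 3 CCI libraries lay above both SHAM libraries in 8 of 8, against 18.6% of tested genes. The 10 genes stand under common regulators, so they are not independent of each other.

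Leaving out CCI 2 lowered the fold changes, which was bound to follow because CCI 2 was the highest library for every gene. Without it, 5 of 7 tested genes were called higher and none lower, against 3.03% of all genes tested in that fit called higher. Cd74 passed at 2.73 on the log2 scale (SE 0.25, adjusted p = 0.000995 by edgeR), Ciita with 2.97 (adjusted p = 0.00519) and RT1-Db1 with 1.80 (adjusted p = 0.0487), beside RT1-DMa at 0.99 and RT1-DMb at 1.69. RT1-Da at 3.69 (adjusted p = 0.231) and RT1-Ba at 3.21 (adjusted p = 0.327) did not, with CCI 3 above CCI 1 in both. With CCI 2 and CCI 3 both left out, a step chosen after the data were seen that leaves CCI 1 alone against SHAM and takes the spread from SHAM only, 6 of 8 were called higher, against 2.73% of all genes tested. Among them were Cd74 at 2.31, RT1-Da at 2.63 and Ciita at 2.55, and the 2 not called were RT1-Db1 at 1.08 and RT1-DOb at 1.89. Without SHAM 1 and without SHAM 2, none of the 10 genes then tested was called by edgeR, and 2 had an unadjusted p under 0.05 in each fit; 3 were called without CCI 1, against 4.80% of all genes tested, and 2 without CCI 3, against 2.18%. In all 5 libraries 7 of the 8 were called by edgeR's likelihood ratio test and 7 by DESeq2, RT1-Db1 being the exception in both. Over the whole table more genes were called as well, 4.24% higher in the likelihood ratio test and 4.04% by DESeq2.

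**Figure D2:**
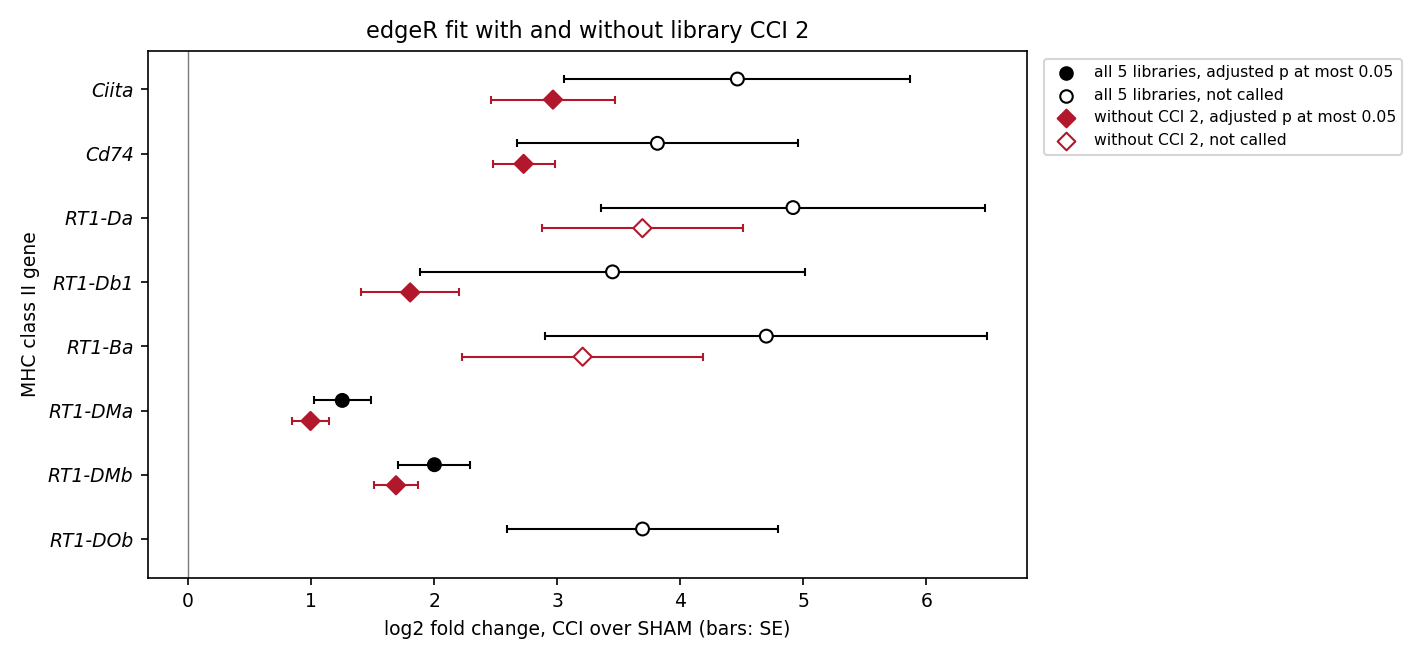
Log2 fold change of CCI over SHAM with its SE for the 8 tested MHC class II genes, in the fit of all 5 libraries (black) and without CCI 2 (red), with filled symbols where the gene was called. RT1-DOb was not tested without CCI 2. The red points lie left of the black ones, as they must with the highest CCI library left out, and carry shorter bars.

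Levels of different genes were compared on the authors' per-length scale (their table named TPM). In the SHAM libraries the transcripts of both DM chains exceeded those of the antigen-presenting chains; protein was not measured. RT1-DMa stood at 18.7 and 18.3 TPM in SHAM 1 and SHAM 2, followed by Cd74 at 9.49 and 10.7 and RT1-DMb at 6.96 and 8.21. RT1-Db1 was at 2.38 and 2.79 TPM and RT1-Da at 2.04 and 2.03. RT1-Ba at 1.04 and 2.18 TPM overlapped RT1-Da, and RT1-DOb and Ciita were lower still. In CCI 2 the order was Cd74 at 300.2 TPM, RT1-Da at 135, RT1-Ba at 97.4, RT1-Db1 at 67.9, RT1-DMa at 60.1 and RT1-DMb at 43.3. CCI 1 kept the DM genes next to Cd74 (50.7 TPM), with RT1-DMa at 39.3, RT1-DMb at 26.3 and RT1-Da at 12.9. CCI 3 lay between them, with RT1-Da at 40.7 TPM and RT1-DMa at 34.9.

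The same shift can be read from ratios of TPM within a library. RT1-Da was 0.327, 2.25 and 1.17 times RT1-DMa in CCI 1, CCI 2 and CCI 3, against 0.109 and 0.111 times in SHAM 1 and SHAM 2. The groups did not overlap. Cd74 was 3.94, 2.22 and 2.08 times RT1-Da in CCI 1 to CCI 3, against 4.65 and 5.26 times in SHAM 1 and SHAM 2. The ratio was lower in each CCI library than in either SHAM library. Within the DR counterpart, RT1-Da was 2.32, 1.99 and 3.18 times RT1-Db1 in CCI 1 to CCI 3, against 0.858 and 0.729 times in SHAM 1 and SHAM 2. Within DM, RT1-DMa was 1.49, 1.39 and 1.51 times RT1-DMb in CCI 1 to CCI 3, against 2.68 and 2.22 times in SHAM 1 and SHAM 2. These ratios are descriptions, and the differences between genes were not tested.

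**Figure D3:**
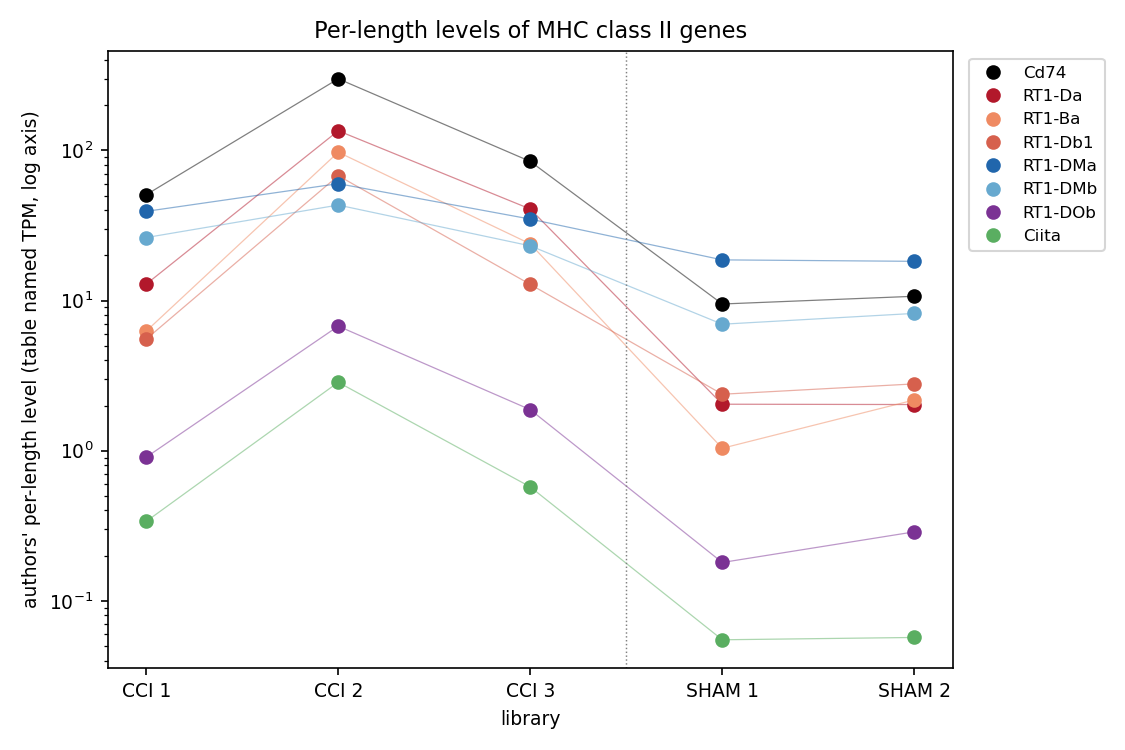
The authors' per-length level (table named TPM, log axis) of 8 MHC class II genes in CCI 1 to CCI 3 and, right of the dotted line, SHAM 1 and SHAM 2, with thin lines joining each gene's points. RT1-DMa is the highest in both SHAM libraries, and Cd74, RT1-Da, RT1-Ba and RT1-Db1 all lie above it in CCI 2.

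Irf8, Spi1 and Ifngr1 rose, and no gene for a factor that binds the X or Y box was called. Of 20 tested genes in a list of class II transcription regulators, 3 were called higher and none lower. Over all tested genes 2.59% were called higher and 0.260% lower. The median log2 fold change of the list was 0.42. Irf8, an interferon regulatory factor of microglia and macrophages, was at 20.6, 32.6 and 18.6 CPM in CCI 1 to CCI 3, against 4.18 and 4.45 CPM in SHAM 1 and SHAM 2 (log2 fold change 2.47, SE 0.28, edgeR adjusted p = 0.00357). Spi1, which encodes the myeloid factor PU.1, rose by 1.76 (SE 0.18), and Ifngr1, the ligand-binding chain of the interferon gamma receptor, by 1.21 (SE 0.12). Jak2, a kinase of that receptor, had an adjusted p of 0.0281 (edgeR) but a log2 fold change of 0.57, below the fold required. Ifngr2 and Prdm1, a repressor of Ciita, did not pass. Of these regulators, 1 was called without SHAM 1 and 2 without SHAM 2.

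Several regulators outside the naming rule are given for their role, chosen after their values were seen. Rfx5, the RFX subunit most directly tied to class II promoters, was at 67.9, 78.4 and 76.8 CPM in CCI 1 to CCI 3, against 70.8 and 78.5 CPM in SHAM 1 and SHAM 2, and its groups overlapped. Its partners Rfxap and Rfxank had log2 fold changes of -0.11 and 0.00, the NF-Y subunits Nfyb and Nfyc of -0.04 and -0.08, and Creb1 of 0.10, none of them called. Nfya, the third NF-Y subunit, was at 0.60 (adjusted p = 0.241 by edgeR). Irf1, an interferon-induced factor that acts on Ciita, followed CCI 2: it was at 11.2, 33.0 and 13.6 CPM in CCI 1 to CCI 3, against 6.86 and 6.94 CPM in SHAM 1 and SHAM 2 (1.49, SE 0.55, not called). Ifng itself had 2 counts in CCI 2 and 0 in every other library.

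Several genes of the endosomal route rose. Of 18 tested genes for proteases, the thiol reductase and trafficking, 7 were called higher and none lower, with a median log2 fold change of 0.49. Over all tested genes 2.59% were called higher and 0.260% lower. Ctss, the protease that makes the last cut in the invariant chain, was at 312, 372 and 290 CPM in CCI 1 to CCI 3, against 149 and 185 CPM in SHAM 1 and SHAM 2 (log2 fold change 0.96, SE 0.14, adjusted p = 0.00885 by edgeR). Ifi30, the lysosomal thiol reductase GILT, was at 31.1, 35.1 and 31.2 CPM in CCI 1 to CCI 3, against 8.73 and 9.84 CPM in SHAM 1 and SHAM 2, a rise of 1.81 (SE 0.13); its counts are fractional and can share reads. The CCI libraries differed little in either gene. The cathepsin genes Ctsc (2.01), Ctsz (1.96) and Ctsh (1.14) and the tetraspanin genes Cd37 (1.90) and Cd63 (0.68) also rose. Lgmn, an asparagine endopeptidase that starts the cutting of the invariant chain (0.54), Ctsb (0.45) and March1, a ligase that removes class II from the surface (0.78), did not pass. When either SHAM library was left out, 1 gene of this list was called.

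Among co-stimulatory partners and T cell receptors, 2 of 12 tested genes were called higher and none lower, with a median log2 fold change of 0.98. For comparison, 2.59% of all tested genes were called higher and 0.260% lower. Cd86, a ligand for CD28 on T cells, was at 4.30, 4.17 and 3.18 CPM in CCI 1 to CCI 3, against 1.41 and 1.35 CPM in SHAM 1 and SHAM 2 (1.49, SE 0.29, adjusted p = 0.0277 by edgeR). Cd4, the coreceptor that binds class II and is also made by rat macrophages and microglia, was at 44.7, 45.6 and 51.5 CPM in CCI 1 to CCI 3, against 8.05 and 7.84 CPM in SHAM 1 and SHAM 2, a rise of 2.57 (SE 0.13). Cd40 (1.37, adjusted p = 0.0568 by edgeR), Cd80 (1.47) and Tnfsf4 (1.18) did not pass. With either SHAM library left out, 1 gene of this list was called.

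**Figure D4:**
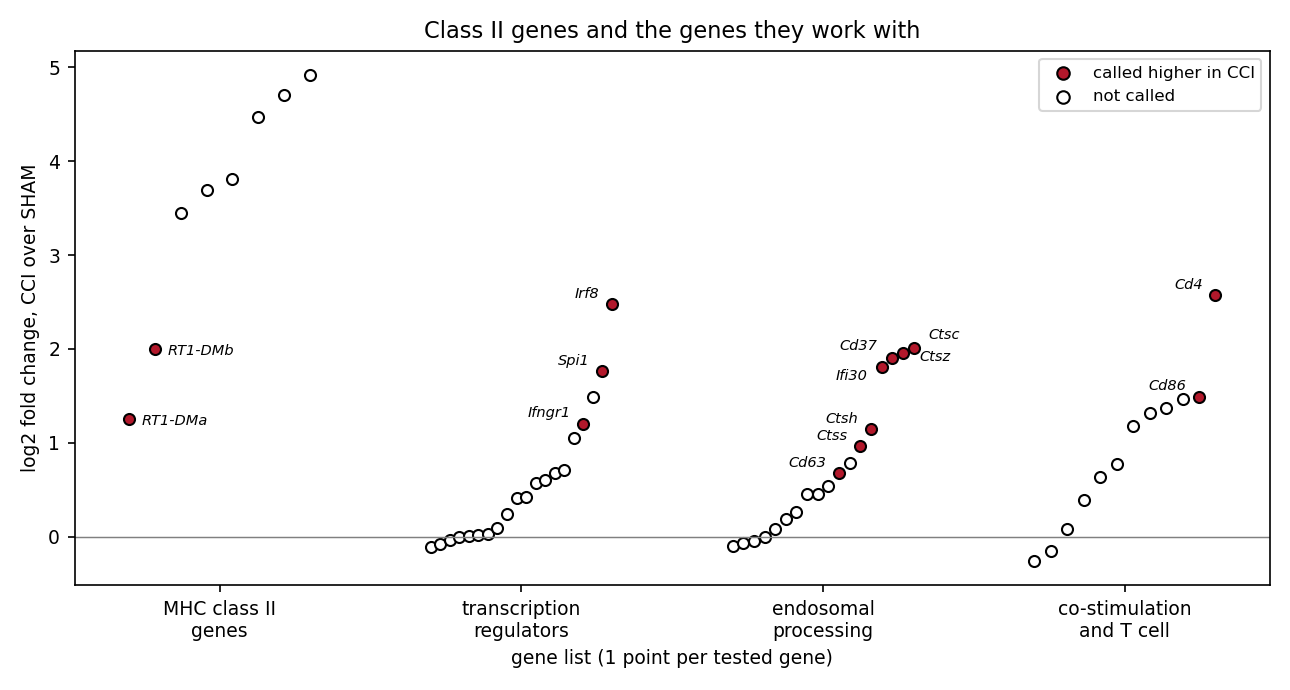
Log2 fold change of CCI over SHAM for every tested gene of the class II set and of the lists of transcription regulators, endosomal processing and co-stimulation, sorted within each list, with called genes in red and named. The class II genes other than RT1-DMa and RT1-DMb lie above every gene of the other lists and are open, that is, not called.

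Most microglial markers rose, and their sum was nearly level across the CCI libraries. Of 14 tested microglia markers 10 were called higher, against 2.59% of all tested genes. The summed level of the 14 was 1323, 1419 and 1280 CPM in CCI 1 to CCI 3, against 437 and 491 CPM in SHAM 1 and SHAM 2. P2ry12, a receptor of resting microglia, was at 28.5, 28.5 and 31.7 CPM in CCI 1 to CCI 3, against 14.1 and 14.5 CPM in SHAM 1 and SHAM 2. Csf1r and C1qa, the most abundant of the list, rose by 1.64 and 2.36. Tmem119, chosen after its values were seen, was at 13.5, 25.8 and 25.6 CPM in CCI 1 to CCI 3. It was at 11.4 and 25.5 CPM in SHAM 1 and SHAM 2 (log2 fold change 0.23, not called). In the other 13 markers every CCI library lay above both SHAM libraries, against 18.6% of all tested genes. Set against the microglial chemokine receptor gene Cx3cr1 in the same library, chosen after the values were seen, RT1-Da was 0.171, 1.54 and 0.534 times as high in TPM in CCI 1 to CCI 3, against 0.0605 and 0.0595 times in SHAM 1 and SHAM 2. RT1-DMb was 0.35, 0.492 and 0.303 times Cx3cr1 in CCI 1 to CCI 3, against 0.206 and 0.241 times in SHAM 1 and SHAM 2.

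Markers of other cells that can carry class II, or that could have come with the tissue, varied among the CCI libraries too. The 10 border macrophage markers in the table summed to 78.0, 125 and 144 CPM in CCI 1 to CCI 3, against 83.6 and 80.8 CPM in SHAM 1 and SHAM 2. Their defining marker Mrc1 was at 5.74, 20.2 and 21.6 CPM in CCI 1 to CCI 3, against 3.64 and 6.40 CPM in SHAM 1 and SHAM 2, while the most abundant members, Siglec1 and Lyve1, were not called. Siglec1 and Lyve1 have fractional counts in all 5 libraries and can share reads. Folr2, a border macrophage receptor, was the 1 of 9 tested to be called (log2 fold change 2.32, SE 0.49, edgeR adjusted p = 0.0426). Of all tested genes 2.59% were called higher. In 4 of the 10 border macrophage markers every CCI library lay above both SHAM libraries, against 18.6% of all tested genes.

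Among dendritic, B and T cell markers, none was called by edgeR, and the defining T cell genes had few counts. An unadjusted p under 0.05 (edgeR) was reached by 4 of 7 dendritic, 0 of 4 B and 0 of 5 T cell markers tested. Over all 13478 tested genes it was reached by 2153. The 9 dendritic cell markers summed to 52.9, 54.8 and 53.4 CPM in CCI 1 to CCI 3, against 67 and 59.3 CPM in SHAM 1 and SHAM 2, most of it from Flt3 (log2 fold change -0.48, not called) and Zbtb46; Itgax was not analysed here. Lower-count dendritic cell genes, chosen after their values were seen, ran otherwise: Clec9a had 10, 43 and 14 counts in CCI 1 to CCI 3 and 3 and 5 in SHAM 1 and SHAM 2 (log2 fold change 2.33, edgeR adjusted p = 0.154). Batf3 had 21, 30 and 11 counts in CCI 1 to CCI 3 and 7 and 2 in SHAM 1 and SHAM 2 (2.09, edgeR adjusted p = 0.119), and Ccr7 had 0, 13 and 0 in CCI and 0 and 0 in SHAM. In 5 of the 9 every CCI library lay above both SHAM libraries, against 18.6% of all tested genes. In CCI 2, 4 of the 9 were highest, against 23.0% of all tested genes. The 8 B cell markers summed to 5.74, 8.46 and 13.9 CPM in CCI 1 to CCI 3, against 7.64 and 6.30 CPM in SHAM 1 and SHAM 2, mainly from Fcrla and Blk. The 12 T and NK cell markers summed to 63.2, 83.8 and 101 CPM in CCI 1 to CCI 3, against 77.4 and 57.6 CPM in SHAM 1 and SHAM 2, mostly from Ncr1 and Cd247. Fcrla, Blk, Ncr1 and Cd247 have fractional counts in all 5 libraries and can share reads, so these B and T cell sums are uncertain. Cd3e, a chain of the T cell receptor complex, had 0, 56 and 9 counts in CCI 1 to CCI 3 and 0 and 0 in SHAM 1 and SHAM 2. Cd8a, a T cell coreceptor chosen after its values were seen, had 6, 76 and 11 counts in CCI 1 to CCI 3 and 1 and 5 in SHAM 1 and SHAM 2. Of the 12, 10 were highest in CCI 2, against 23.0% of all tested genes. At 0 were 4, 0 and 2 of the 12 in CCI 1 to CCI 3, against 5 and 2 in SHAM 1 and SHAM 2.

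Schwann cell markers summed to 227, 392 and 720 CPM in CCI 1 to CCI 3, against 226 and 263 CPM in SHAM 1 and SHAM 2. Gjb1, among the most abundant of them, was not called. Fibroblast markers summed to 238, 990 and 912 CPM in CCI 1 to CCI 3, against 228 and 288 CPM in SHAM 1 and SHAM 2, led by Col3a1 at 19.3, 417 and 265 CPM in CCI 1 to CCI 3, against 22.2 and 36.8 CPM in SHAM 1 and SHAM 2; Pdgfra was also among the most abundant. None of the 11 Schwann cell or 12 fibroblast markers was called by edgeR. An unadjusted p under 0.05 (edgeR) was reached by 4 and 3 of them, against 2153 of all 13478 tested genes. In CCI 1 both sums stood at the SHAM level, but single Schwann cell markers went both ways. Ngfr was at 23.1 CPM in CCI 1, against 9.77 and 9.99 CPM in SHAM 1 and SHAM 2. Gjb1 was at 88.8 CPM, against 97.3 and 115 CPM. The class II genes other than RT1-Bb and RT1-DOa were, in CCI 1, 1.96 times (RT1-Db1) to 6.24 times (RT1-Da) the higher SHAM library. RT1-Bb was 1.02 times it, and RT1-DOa had no count in CCI 1 or in SHAM. What part any of these cell types had in the class II levels of any CCI library was not tested.

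**Figure D5:**
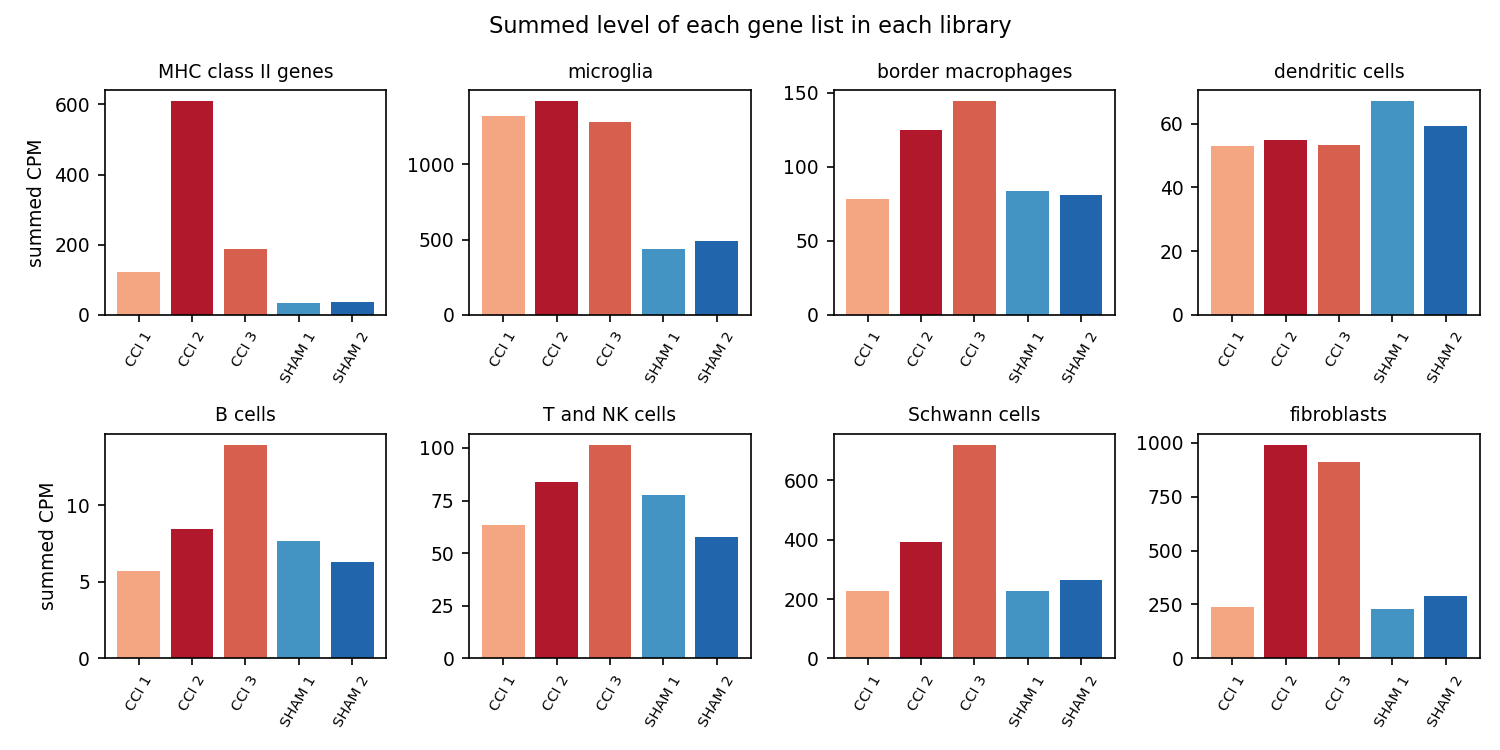
Summed CPM of the MHC class II genes and of 7 lists of cell type markers in each library, with CCI 1 to CCI 3 left of SHAM 1 and SHAM 2 and each panel on its own axis from 0. Microglia are even across the CCI libraries, class II peaks in CCI 2, and Schwann cell and fibroblast markers are high in CCI 2 and CCI 3 only.

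The genes whose profile over the 5 libraries was closest to that of Cd74 were sought among 11005 genes with a mean of at least 5 CPM, by the root mean square difference of centred log2(CPM + 1). RT1-Da came first (0.373), and RT1-Ba (0.425) and RT1-Db1 (0.539) were also among the 9 closest. The other 6 were the complement gene C4b (0.376), the lysozyme gene Lyz2 (0.385), LOC688090 (0.50), the leukocyte integrin gene Itgal (0.512), the complement inhibitor gene Serping1 (0.521) and the ceruloplasmin gene Cp (0.577). Lyz2 was at 37.9, 380.2 and 127 CPM in CCI 1 to CCI 3, against 13 and 18.1 CPM in SHAM 1 and SHAM 2. Itgal was at 36.0, 73.1 and 27.8 CPM in CCI 1 to CCI 3, against 4.27 and 3.35 CPM in SHAM 1 and SHAM 2. None of the 6 was called by edgeR, and C4b, Lyz2 and LOC688090 have fractional counts that can share reads. Ciita (0.656), RT1-DMb (0.920), RT1-DOb (1.13) and RT1-DMa (1.20) were farther from Cd74 than any of these. Ciita and RT1-DOb lay below the mean of 5 CPM required in the search, and adding 1 flattens differences at such levels. Their distances therefore cannot be set beside those of more abundant genes. CCI 2 was 4.71 times the mean of the other CCI libraries in RT1-DOb, 6.36 times in Ciita and 4.36 times in Cd74.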

How the data were processed

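Per gene, the authors deposited estimated counts; the submitters' processing notes name kallisto 0.44.0 and the build rn6. Their second deposited table, named TPM and per length, has column totals that vary and is handled as a signal; the series' design text names TMM (trimmed mean of M-values) as its normalization. The annotation is not given in the sources used here. Estimated counts are fractional where reads fit several rows and were rounded to whole numbers. The 13478 of 17321 genes passing filterByExpr (minimum count 10) were fitted in all 5 libraries under R 4.3.3 by edgeR 4.0.16's quasi-likelihood test (two-sided, robust glmQLFit after TMM scaling, 3 residual degrees of freedom), p-values being adjusted by Benjamini-Hochberg over those genes; the thresholds are those the series states. Each SE is |log2 fold change| over √F. CPM use TMM-scaled library sizes. Groups follow the treatment label; numbers within a group follow accession order. No pair of libraries of a group was alike within sampling noise (chi-square per degree of freedom 19.9 to 233).

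Alternatives were edgeR's likelihood ratio test, DESeq2 1.42.0, limma-voom (limma 3.58.1), another scaling, other filters, the deposited TPM table at log2(value + 0.5) and log2(value + 0.1), ribosomal rows left out and each library left out. The fit was tested on simulated data. The genes and lists were chosen with earlier results of these data known. Named are all 10 class II genes; in the 3 pathway lists every called gene and 3 uncalled genes of lowest p; in the marker lists the 2 most abundant genes and fixed defining markers; and the 6 genes outside the set most like Cd74. Some genes under this rule are not reported here. Promoter sequences are from RefSeq on GRCr8, matched by symbol. Figures were drawn with matplotlib 3.10.9.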

Additional observations from a re-analysis of the deposited data

How the results depend on the processing

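No class II gene changed direction under any alternative run. The number of class II genes called, 2 in the main test, was 7 with the likelihood ratio test, 7 with DESeq2, 1 with limma-voom, 1 with the deposited TPM table at either pseudocount and 6 for CCI 1 alone against SHAM; it ran from 0 to 5 when single libraries were left out (0 without SHAM 1 or SHAM 2, 5 without CCI 2). Among regulators the count, 3, ran from 1 to 4 with single libraries left out, among processing genes (7) from 1 to 8, and among co-stimulation genes (2) from 1 to 3, with 4 by the likelihood ratio test. The cause was not tested. Other scaling and the filters left these counts within 1.5 times. Calls among all tested genes moved as well. Genes called higher were 349 of 13478 in the main test, 571 with the likelihood ratio test, 545 with DESeq2 and 297 with limma-voom. From the deposited TPM values, 299 and 353 of 15218 genes were called higher at the larger and smaller pseudocount. With CCI 1, CCI 2 or CCI 3 left out, 4.80%, 3.03% and 2.18% of all genes tested were called higher. RT1-Bb and RT1-DOa without a filter had adjusted p of 0.526 and 0.534 (edgeR). Genes under 1 CPM rest on few counts, and 2 SHAM libraries limit every test. No paired analysis was possible because the labels carry no replicate numbers.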

Other observations

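Of the other class II rows in the table, chosen after their values were seen, RT1-Db2, a further beta chain gene, was at 1.39, 3.02 and 2.54 CPM in CCI 1 to CCI 3, against 1.14 and 0.749 CPM in SHAM 1 and SHAM 2. All 3 CCI libraries lay above both SHAM libraries, with a log2 fold change of 1.29 (SE 0.43, edgeR adjusted p = 0.179), and the CCI libraries spread over 2.17 times, less than in RT1-Db1. RT1-Ha had 1 to 3 counts in the CCI libraries and 0 and 2 counts in SHAM.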
